A study of Homo sapiens with 6 samples.

Results

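EDAR encodes the ectodysplasin A receptor, a death-domain member of the tumour necrosis factor (TNF) receptor superfamily. It was examined together with 7 genes of its family and signalling route, in SW403 colon cancer cells, with and without knockdown of IRS2. The 8 genes were taken by symbol from a count table of 26490 gene symbols: the receptors EDAR, EDA2R and TNFRSF19, the ligand EDA, and the signalling proteins EDARADD, TRAF6, TAB2 and MAP3K7. EDAR was chosen by its own log2 fold change, one of the largest rises in this same comparison, so its difference is given as a description without a test. The other 7 were listed by their place in the pathway, with earlier results of these data known. Of the 8 genes, 7 passed the low-count filter and 1, EDA2R, did not.

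Control and knockdown groups held 3 RNA-seq libraries each, numbered 1 to 3 in the titles. Both groups are SW403, an established colon adenocarcinoma line, seeded in triplicate and cultured for 24 h in serum-containing DMEM with no treatment. The control genotype is given as WT and the other as IRS2_knockdown, while the column names carry NS and IRS2KO. How IRS2 was lowered, what NS stands for and whether the 3 cultures of a group derive from 1 line or clone are not given in the sources used here, so p-values measure the spread between these cultures, which may be technical. IRS2, the adaptor protein targeted by the knockdown, was at 32.4, 34.8 and 32.2 CPM (the usual unit of counts scaled to the total of their library) in control and 13, 12.3 and 11.9 CPM in knockdown libraries, a log2 fold change of -1.39 ± 0.07 (SE; edgeR adjusted p 3.12e-11).

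Libraries held 11816973 to 12585013 counts in control and 14329348 to 18114656 in knockdown. These totals limit the precision of the lowest genes, and counting error does not cover amplified reads. Over 13832 tested genes, edgeR's quasi-likelihood test called 38.5% at an adjusted p under 0.05, with 19.3% higher and 19.2% lower in knockdown, and the CPM of the groups did not overlap for 48.4%. Of 12 colon epithelium markers, KRT20, CDX1 and CEACAM5 had no read in any library, and CDH1, LGALS4 and GPA33 had 0 to 5 reads. Among the 6 tested, CDX2 rose from 77.7 ± 2.16 to 83.7 ± 2.42 CPM, whereas KRT19 fell from 230.0 ± 11.4 to 162.0 ± 8.22 CPM and EPCAM from 40.2 ± 1.43 to 33.9 ± 1.38 CPM (SD, n = 3 each; edgeR adjusted p 0.0148, 4.35e-08 and 0.00581). KRT8, KRT18 and VIL1 did not pass (edgeR adjusted p 0.132, 0.209 and 0.0999). Of 8 markers of stratified epithelium, KRT1 and DSG3 had no read, and KRT14, TP63 and COL17A1 had 0 to 2 reads. KRT5 (control 1560.0 ± 31.2, knockdown 1460.0 ± 15.4 CPM; SD, n = 3 each) and KRT15 did not pass (edgeR adjusted p 0.0877 and 0.197), and KRT10 fell from 29.9 ± 0.865 to 25.4 ± 2.85 CPM (edgeR adjusted p 0.0465). The 6 fibroblast markers summed to 26.1, 9.63 and 7.62 CPM in control replicates 1 to 3, all above the 4.28 to 5.65 CPM in knockdown. The tested ones, COL1A1 and COL3A1, fell by log2 fold changes of -1.15 and -1.71 (edgeR adjusted p 0.0029 and 0.0136), COL3A1 with overlapping groups. The 6 immune markers summed to at most 3.81 CPM and the 4 endothelial markers to at most 0.876 CPM in a library, with PECAM1 and CDH5 at no read. The part of these markers in the results below was not tested, and in bulk RNA fewer cells of a type and less RNA per cell cannot be told apart.

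Ectodysplasin A is a TNF-family ligand made in splice forms that bind different receptors: EDA-A1 binds EDAR and EDA-A2 binds EDA2R. Bound EDAR recruits the adaptor EDARADD through a death domain. EDARADD in turn engages TRAF6, TAB2 and the kinase MAP3K7 (TAK1), which activate the IκB kinases and release NF-κB. The pathway is best known from hair, tooth, sweat gland and mammary development, where its loss causes hypohidrotic ectodermal dysplasia. TNFRSF19 (TROY) is a related receptor without a death domain, known as a marker of intestinal stem cells and a Wnt target.

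EDAR was at 25.7, 26.0 and 23.1 CPM in control against 75.4, 77.3 and 75.0 CPM in knockdown libraries. The knockdown libraries lay close together and all stood far above the control libraries. The means were 24.9 ± 1.6 and 75.9 ± 1.25 CPM (SD, n = 3 each), and the log2 fold change was 1.63 ± 0.05 (SE), a 3.10-fold higher level. The gene (ENSG00000135960) lies on the minus strand of chromosome 2 (GRCh37, 109510927 to 109605828) and its canonical transcript has 12 exons. By log2 fold change EDAR ranked 16 of all 13832 tested genes. Among the 10449 genes whose mean count was 100 or more it ranked 3, between CACNA1E at 2.15 and DKK4 at 1.46. Without control replicate 1, the library with the highest fibroblast marker sum, the log2 fold change of EDAR was 1.65. The remaining control libraries, with sums of 9.63 and 7.62 CPM, still stood above every knockdown library. The part of these markers in the rise of EDAR was not tested.

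The other receptors differed in size and direction. TNFRSF19 was at 30.0, 31.5 and 35.3 CPM in control against 40.5, 42.0 and 41.0 CPM in knockdown libraries. It rose in knockdown, with no overlap between the groups, by a log2 fold change of 0.38 ± 0.06 (SE; edgeR adjusted p 5.21e-05). EDA2R, also called XEDAR and a known p53 target, was near the limit of detection, with 22, 15 and 8 counts in control and 5, 5 and 8 counts in knockdown libraries. This corresponds to 1.75, 1.19 and 0.677 CPM in control against 0.349, 0.293 and 0.442 CPM in knockdown, so the groups did not overlap after scaling although the counts did touch. EDA2R was left out by the low-count filter. In the fit without that filter its log2 fold change was -1.68 ± 0.43 (SE; edgeR adjusted p 0.000723). That fit gave far smaller p-values for strongly changed genes, with IRS2 at 3.65e-66 against 3.12e-11 in the main edgeR fit. Its p-values are thus not comparable with the others given here. In some fits that left out a library, EDA2R passed the filter through its control libraries, with edgeR adjusted p from 0.00117 to 0.0197. The filter favoured a fall there, so these p-values are no independent support for its direction.

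The ligand gene EDA was at 8.98, 9.47 and 10.1 CPM in control against 9.63, 11.7 and 9.61 CPM in knockdown libraries. The groups overlapped, and knockdown replicate 2 was the highest. The log2 fold change was 0.15 ± 0.11 (SE), with a 95% interval of -0.07 to 0.36 and an edgeR adjusted p of 0.310. A gene-level count does not separate the EDA-A1 and EDA-A2 splice forms. An antisense RNA, ENSG00000286077, covers 1327 nt of the exons of the canonical EDA transcript, and because the strand setting is not given in the sources used here, its reads cannot be told apart from those of EDA.

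**Figure D1:**
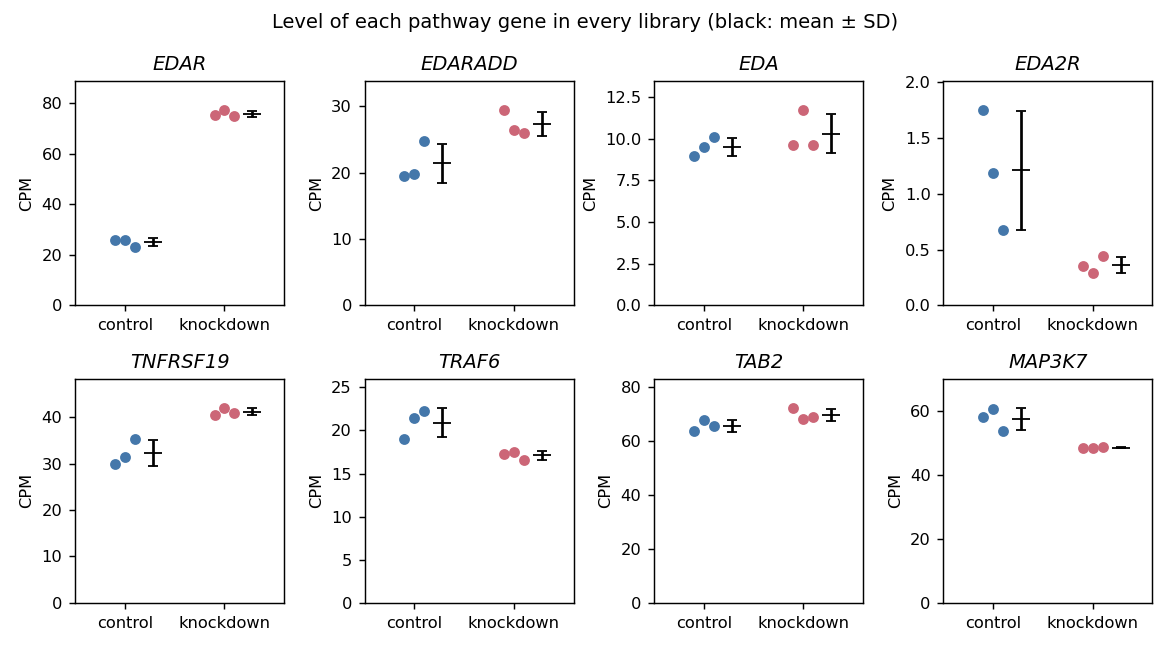
Level of each of the 8 genes in CPM (y axis, starting at 0, own scale per gene) in the 3 control (blue) and 3 knockdown (red) libraries, with the mean ± SD in black. EDAR is separated most, 23.1 to 26.0 against 75.0 to 77.3 CPM, EDA overlaps between groups, and EDA2R stays at or under 1.75 CPM throughout.

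The adaptor EDARADD, which joins EDAR to TRAF6, was at 19.5, 19.8 and 24.8 CPM in control against 29.4, 26.5 and 25.9 CPM in knockdown libraries. Control replicate 3 stood above the other controls but below every knockdown library. EDARADD rose by a log2 fold change of 0.38 ± 0.08 (SE; edgeR adjusted p 0.00119). Leaving out control replicate 3 gave 0.50 and leaving out control replicate 1 gave 0.32. Of the 3088 nt of its canonical transcript, 1304 nt coincide with ENO1P1, a processed pseudogene of the glycolytic enzyme gene ENO1. ENO1 itself was at 2350.0 ± 73.3 CPM in control against 2420.0 ± 36.5 CPM in knockdown (SD, n = 3 each). How reads shared by such copies were counted is not given in the sources used here, so the level of EDARADD is uncertain. The part of ENO1 reads in the EDARADD difference was not tested.

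Downstream of the adaptor, TRAF6 and MAP3K7 were lower in knockdown. TRAF6, a ubiquitin ligase, was at 19.0, 21.4 and 22.3 CPM in control against 17.3, 17.5 and 16.6 CPM in knockdown libraries, with no overlap. It fell by a log2 fold change of -0.26 ± 0.08 (SE; edgeR adjusted p 0.0133), but this call was lost with DESeq2 (adjusted p 0.0777), after adjusting for length and GC content of the transcripts (edgeR adjusted p 0.0522, and 0.0610 with a replicate block), and without control replicate 2 (0.0592) or control replicate 3 (0.0707). MAP3K7, the kinase TAK1, was at 58.2, 60.6 and 53.9 CPM in control against 48.5, 48.4 and 48.7 CPM in knockdown libraries. It fell by a log2 fold change of -0.22 ± 0.05 (SE; edgeR adjusted p 0.00232), and the call held in all 19 alternatives, where the largest adjusted p was 0.0295.

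TAB2, which carries TAK1 to ubiquitin chains, was at 63.4, 67.7 and 65.4 CPM in control against 72.1, 68.0 and 68.8 CPM in knockdown libraries. The groups stood just apart, and the log2 fold change of 0.12 ± 0.05 (SE) had an edgeR adjusted p of 0.0523. Over the 19 alternatives this p ran from 0.00179 to 0.183. Among the 6 tested genes other than EDAR, 4 were called, 2 higher and 2 lower, beside 38.5% of all tested genes. Groups did not overlap for 5 of these 6 genes, 3 higher and 2 lower in knockdown, beside 19.6% of all tested genes higher and 28.8% lower. Nothing is read from either count, because the genes were chosen with the comparison known.

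Gene positions are those of GENCODE on GRCh37. TNFRSF19 is on the plus strand of chromosome 13 (24144509 to 24250243) and EDA2R on the minus strand of chromosome X (65815479 to 65859140). EDA is also on chromosome X, on the plus strand (68835911 to 69259322), and EDARADD is on the plus strand of chromosome 1 (236511557 to 236666215). TRAF6 is on the minus strand of chromosome 11 (36505319 to 36531822). TAB2 (149539777 to 149732749, plus strand) and MAP3K7 (91223292 to 91296805, minus strand) are both on chromosome 6.

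Levels of different genes were compared only as CPM per kb of the canonical transcript. In control the order was TAB2 at 15 ± 0.498, MAP3K7 at 11.7 ± 0.687, TNFRSF19 at 7.27 ± 0.610, EDARADD at 6.93 ± 0.956, EDAR at 6.14 ± 0.393, TRAF6 at 2.65 ± 0.215, EDA at 1.82 ± 0.104 and EDA2R at 0.349 ± 0.155 CPM per kb (SD, n = 3 each). TNFRSF19, EDARADD and EDAR overlapped with their neighbours in that order, so EDAR was not distinct from its adaptor. In knockdown EDAR had the highest level, 18.7 ± 0.309 CPM per kb, above TAB2 at 16.0 ± 0.50 (SD, n = 3 each) in every library. MAP3K7 followed at 9.84 ± 0.0358, TNFRSF19 at 9.27 ± 0.163 and EDARADD at 8.83 ± 0.598 CPM per kb (SD, n = 3 each), with overlap between TNFRSF19 and EDARADD. TRAF6 at 2.17 ± 0.0639 and EDA at 1.97 ± 0.225 overlapped, and EDA2R was lowest at 0.105 ± 0.0217 CPM per kb (SD, n = 3 each).

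**Figure D2:**
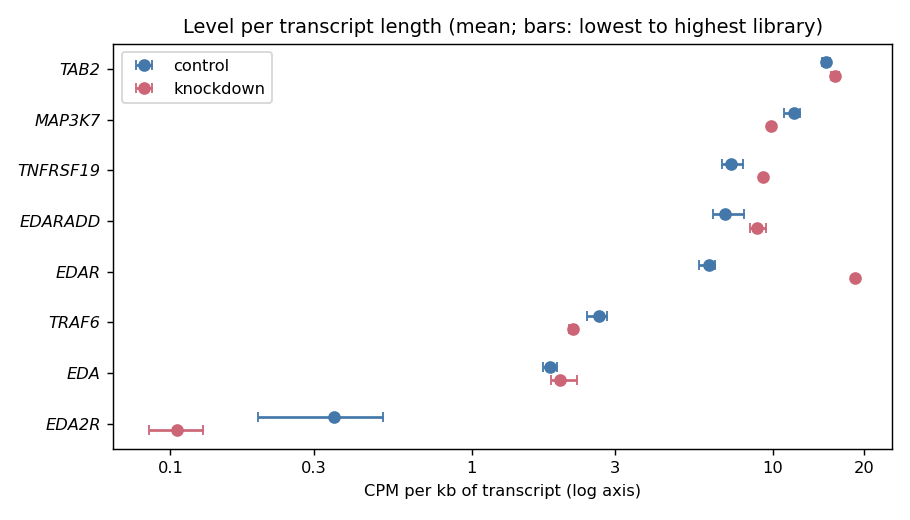
Level of the 8 genes in CPM per kb of transcript (log x axis), ordered by the control mean; points are means of 3 libraries and bars run from the lowest to the highest library. EDAR moves from 6.14 in control to 18.7 in knockdown and passes TAB2, while the other genes keep their order among themselves.

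Expressed per length, the ratio of EDAR to EDARADD was 0.998, 0.998 and 0.708 in control and 1.95, 2.22 and 2.20 in knockdown libraries. Receptor and adaptor transcripts were thus close to parity or below it in control, and the receptor exceeded the adaptor in every knockdown library. The ratio of EDAR to TNFRSF19 was 0.850 ± 0.118 in control and 2.02 ± 0.0150 in knockdown (SD, n = 3 each). The ratio of EDAR to its ligand gene EDA was 3.39 ± 0.385 and 9.57 ± 0.882, whereas that of EDARADD to EDA was 3.80 ± 0.328 and 4.53 ± 0.662 (SD, n = 3 each). These ratios contain the rise of EDAR that chose it and carry no test, and those with EDARADD share its uncertainty.

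Promoter sequences are shown for EDARADD and TNFRSF19, which both rose with EDAR. They are the 250 bases before the RefSeq start (GRCh38.p14) that matches the first exon of the canonical transcript. RefSeq windows of 300 bases, from 250 before to 50 after a start, matched 6 of the 8 genes, not EDAR and EDA. Each window was searched on both strands for the NF-κB consensus and for CTTTGA, the core of TCF/LEF sites. Neither sequence printed here holds a match, so all bases are in lower case.
EDARADD, chr1:236394036-236394285, plus strand: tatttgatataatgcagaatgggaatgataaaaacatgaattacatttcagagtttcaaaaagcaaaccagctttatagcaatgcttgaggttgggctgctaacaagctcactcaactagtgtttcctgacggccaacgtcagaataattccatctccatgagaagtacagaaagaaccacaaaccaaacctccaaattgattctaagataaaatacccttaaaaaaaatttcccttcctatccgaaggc
TNFRSF19, chr13:23570162-23570411, plus strand: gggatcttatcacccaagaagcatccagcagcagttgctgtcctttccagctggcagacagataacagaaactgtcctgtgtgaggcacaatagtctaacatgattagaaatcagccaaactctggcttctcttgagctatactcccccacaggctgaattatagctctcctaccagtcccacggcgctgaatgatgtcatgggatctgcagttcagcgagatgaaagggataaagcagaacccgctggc
Of the 6 genes with a window, only TAB2 had the NF-κB consensus, once, 12 bases after a start that is not that of its canonical transcript, and only EDA2R had CTTTGA. Over all windows, the NF-κB consensus occurred at 7.09% of 27303 genes and CTTTGA at 15.5%.

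The other genes of the route from the receptors to NF-κB and JNK were taken from a list of 27 genes, all of which were tested. In knockdown, 11 of the 27 rose and 0 fell in edgeR's quasi-likelihood test, beside 19.3% higher and 19.2% lower over all tested genes. DESeq2 and limma voom also called 0 lower, and at an unadjusted p under 0.05 there was 1 lower gene, the ubiquitin-conjugating enzyme gene UBE2N, with a log2 fold change of -0.09 and an edgeR adjusted p of 0.0543. With upper-quartile factors, with library-size scaling alone, with a mean of at least 50 counts, without control replicate 3 and without knockdown replicate 3, 1 route gene was called lower. The median log2 fold change of the list was 0.11, against -0.004 over all tested genes. NFKB2 and RELB, whose products form the dimer of the non-canonical pathway, and NFKB1 had the smallest p-values of the list. NFKB2 was at 29.0, 26.0 and 28 CPM in control against 45.6, 47.0 and 44.1 CPM in knockdown libraries, a log2 fold change of 0.75 ± 0.06 (SE; edgeR adjusted p 7.41e-09). RELB was at 15.3, 15 and 14.0 CPM against 23.4, 27.9 and 25.2 CPM, a log2 fold change of 0.82 ± 0.08 (SE; edgeR adjusted p 1.89e-07). NFKB1, the gene of the p105 precursor of the canonical pathway, rose by 0.27 ± 0.05 (SE; edgeR adjusted p 0.000104).

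Inhibitors of the route did not all pass, and those given here are named after their values were seen. NFKBIA, the gene of IκBα, went from 13.4 ± 1.17 to 18.7 ± 1.88 CPM and TNFAIP3, the gene of the deubiquitinase A20, from 1.47 ± 0.335 to 2.98 ± 0.704 CPM (SD, n = 3 each; edgeR adjusted p 0.000212 and 0.00227). NFKBIE, the gene of another IκB protein, also rose (log2 fold change 0.38, edgeR adjusted p 0.00858), while NFKBIB at -0.07 and CYLD, a deubiquitinase gene, at 0.15 did not pass (edgeR adjusted p 0.337 and 0.0806). The 3 subunit genes of the IκB kinase complex did not pass, with log2 fold changes of -0.01 for CHUK, 0.09 for IKBKB and 0.11 for IKBKG (edgeR adjusted p 0.897, 0.177 and 0.138). They too are named after their values were seen. The length and GC correction raised the count of rising route genes to 15, and leaving out knockdown replicate 2 lowered it to 8.

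A list of 27 widely used NF-κB response genes shares NFKBIA, TNFAIP3 and TRAF1 with the route. Of its members, 16 were tested, 11 rose and 0 fell in edgeR's quasi-likelihood test, beside 19.3% higher and 19.2% lower over all tested genes, with 0 lower at an unadjusted p under 0.05 and 0 lower with DESeq2 or limma voom. The median log2 fold change of the tested members was 0.52, against -0.004 over all tested genes. CCL20, CXCL1 and CXCL8 passed the low-count filter only through knockdown libraries, so the filter favoured a rise for them. CCL20 and CXCL1 are among the 11 risers. With no low-count filter the median was 0.20 over 25 genes, and with a mean of at least 50 counts it was 0.5 over 9 genes. Over all genes it was -0.01 in both fits. BIRC3, an inhibitor of apoptosis that binds TRAF proteins, was at 1.75, 2.79 and 2.71 CPM in control against 8.93, 10.1 and 9.61 CPM in knockdown libraries. Its log2 fold change of 2.01 ± 0.16 (SE; edgeR adjusted p 1.34e-08) is a 4.04-fold rise. ICAM1, an adhesion molecule for leukocytes, rose from 6.04, 7.96 and 5.67 CPM to 16.7, 14.6 and 14.4 CPM (log2 fold change 1.24 ± 0.12 SE; edgeR adjusted p 1.32e-07). TNFAIP2 rose from 38.3 ± 1.66 to 54.3 ± 3.27 CPM (SD, n = 3 each; edgeR adjusted p 4.22e-07). The remaining 11 listed genes were too low for the test, and BCL2A1 and IL1B had no read.

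Genes known from skin, hair, tooth and mammary development to depend on ectodysplasin formed a list of 17, of which 10 were tested. In knockdown 4 rose, 2 fell and 4 did not pass, beside 19.3% higher and 19.2% lower over all tested genes. The median log2 fold change was 0.58, against -0.004 over all tested genes. This median lies between PTHLH at 0.49 and MADCAM1 at 0.67, which were not called. Neither would have passed the low-count filter on its control libraries alone, so the filter favoured a rise in the genes that set the median. With no low-count filter the median was 0.34 over all 17, against -0.01 over all genes. The list was written with the rise of DKK4 known and is no independent evidence of direction. DKK4, a secreted Wnt inhibitor, was at 57.1, 54.1 and 56.6 CPM in control against 152.0, 147.0 and 153.0 CPM in knockdown libraries, a log2 fold change of 1.46 ± 0.04 (SE; edgeR adjusted p 1.16e-14). SHH, the hedgehog ligand of hair and tooth placodes, was at 3.26, 2.87 and 3.22 CPM against 8.10, 7.50 and 8.17 CPM, a log2 fold change of 1.38 ± 0.14 (SE; edgeR adjusted p 4.14e-07). The remaining risers were RELB, described above, and, named after its value was seen, the Wnt ligand gene WNT10A, with 4 to 12 counts in control and 23 to 34 in knockdown libraries (edgeR adjusted p 0.00578). WNT10A would not have passed the low-count filter on its control libraries alone, so the filter favoured a rise. CCN2, also called CTGF, fell from 6.75, 6.37 and 3.64 CPM to 1.74, 1.58 and 2.43 CPM (edgeR adjusted p 4.90e-05). FOXI3, a transcription factor gene of placodes, fell from 0.947 ± 0.0816 to 0.285 ± 0.0953 CPM (SD, n = 3 each; edgeR adjusted p 0.00323), on 3 to 13 counts per library. FOXI3 passed the low-count filter only through control libraries, so the filter favoured a fall. The p-values of WNT10A and FOXI3 are therefore no independent support for their directions.

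**Figure D3:**
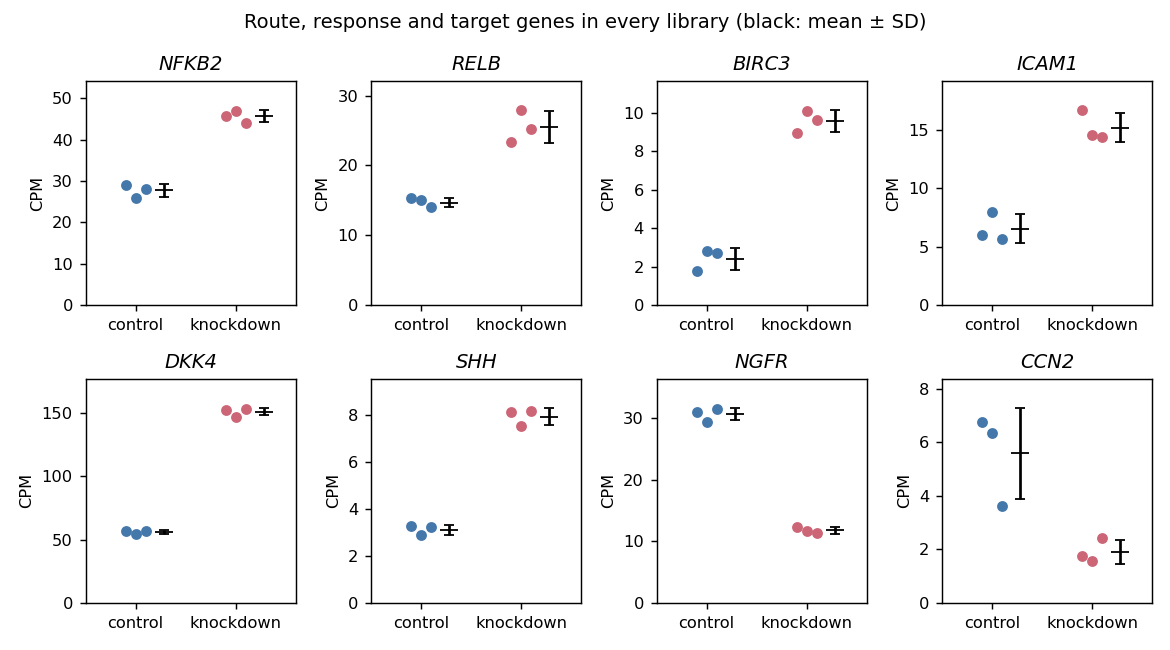
CPM (y axis, starting at 0, own scale per gene) of 4 NF-κB route and response genes, 2 ectodysplasin targets that rose, and NGFR and CCN2, which fell, in the 3 control (blue) and 3 knockdown (red) libraries, with mean ± SD in black. The groups do not overlap for any of the 8 genes plotted, beside 48.4% of all tested genes. These 8 are among the called genes with the smallest p of their lists, so nothing is read from this separation.

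The NF-κB consensus was found at 8 of the 24 route genes and 15 of the 25 response genes with a RefSeq promoter window, and at 7.09% of all genes. In the other lists it was found at 7 of 12 ectodysplasin target, 4 of 15 TNF receptor and 4 of 13 TNF ligand genes with a window. Response genes were listed because NF-κB regulates them, so matches there describe the list, and a match is no evidence of binding in these cells. The sequences below come from genes that rose, to show what the matches look like beside the EDARADD and TNFRSF19 promoters, which have none. Matches also lay at tested genes that did not pass, CYLD, NFKBIB and REL of the route and CXCL3 and NFKBIZ of the response list. The same holds for MADCAM1 of the target list, the receptor genes TNFRSF14 and TNFRSF25 and the ligand gene TNFSF13. CCN2 of the target list, which fell, had a match at position -95. A relation between match and rise was not tested. Bases in capitals are matches on either strand, merged where they overlap. The NFKB2 window ends at the start of its canonical transcript and holds matches at positions -176 and -21 relative to it, and that of BIRC3 holds matches at -199 and -135.
NFKB2, chr10:102395455-102395704, plus strand: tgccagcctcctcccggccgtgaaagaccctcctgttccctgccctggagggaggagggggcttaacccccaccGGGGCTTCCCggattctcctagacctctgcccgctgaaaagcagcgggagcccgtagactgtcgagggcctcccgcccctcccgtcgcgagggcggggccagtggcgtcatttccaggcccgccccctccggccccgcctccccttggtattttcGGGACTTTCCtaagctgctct
BIRC3, chr11:102317234-102317483, plus strand: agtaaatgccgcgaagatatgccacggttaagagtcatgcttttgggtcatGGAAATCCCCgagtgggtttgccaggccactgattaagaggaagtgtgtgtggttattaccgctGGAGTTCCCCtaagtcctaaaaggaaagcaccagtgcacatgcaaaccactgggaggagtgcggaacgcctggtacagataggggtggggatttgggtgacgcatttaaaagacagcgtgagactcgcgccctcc
Shorter stretches around a match are given for 4 further genes. WNT10A and the costimulatory receptor gene TNFRSF9 were chosen for these stretches after their values were seen.
NFKBIA, chr14:35404811-35404840, minus strand: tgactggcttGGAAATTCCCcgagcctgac
TNFAIP3, chr6:137867182-137867213, plus strand: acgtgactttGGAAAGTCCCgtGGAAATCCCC
WNT10A, chr2:218880725-218880754, plus strand: ggggggcctcGGGAAATTCCCcggacccct
TNFRSF9, chr1:7940894-7940923, minus strand: gagctgtggtGGGAATTTCCCatgagaccc

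Of 26 other TNF receptor genes, 18 were tested, 8 rose, 3 fell and 7 did not pass, beside 19.3% higher and 19.2% lower over all tested genes. The median log2 fold change was 0.20, against -0.004 over all tested genes. TNFRSF9, counted among the 8 risers, would not have passed the low-count filter on its control libraries alone, so the filter favoured a rise. FAS rose from 12.2 ± 1.36 to 18.4 ± 0.944 CPM and TNFRSF10B, a receptor for TRAIL, from 74.9 ± 3.88 to 95.2 ± 2.15 CPM (SD, n = 3 each; edgeR adjusted p 1.82e-05 and 2.04e-06). The soluble decoy receptor gene TNFRSF11B, which encodes osteoprotegerin, rose from 18.3 ± 0.870 to 27.4 ± 0.351 CPM (SD, n = 3 each; edgeR adjusted p 8.07e-07). NGFR, the neurotrophin receptor p75, fell from 31.0, 29.5 and 31.5 CPM to 12.4, 11.7 and 11.3 CPM, a log2 fold change of -1.36 ± 0.07 (SE; edgeR adjusted p 5.07e-11). TNFRSF11A, which encodes RANK, fell from 2.27 ± 0.177 to 1.01 ± 0.0300 CPM (SD, n = 3 each; edgeR adjusted p 0.00123). TNFRSF13C fell too (edgeR adjusted p 0.0341), but with overlapping groups and not with DESeq2 (0.116), limma voom (0.0536) or 4 of the 6 fits that left out a library.

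Of 17 other TNF ligand genes, 3 had no read and 4 were tested, of which 2 rose, beside 19.3% higher over all tested genes. Their median log2 fold change was 0.29, against -0.004 over all tested genes. CD70 rose from 4.08 ± 0.309 to 6.93 ± 0.604 CPM and TNFSF12, which encodes TWEAK, from 4.23 ± 0.541 to 5.76 ± 0.352 CPM (SD, n = 3 each; edgeR adjusted p 0.000244 and 0.0178). TNFSF12 missed the threshold with DESeq2 (0.0851), without control replicate 2 (0.0894) and without knockdown replicate 1 (0.0579). In edgeR's quasi-likelihood test 0 ligand genes fell, beside 19.2% lower over all tested genes, with 0 at an unadjusted p under 0.05 and 0 with DESeq2 or limma voom. TNF itself had 0 to 2 counts in any library.

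**Figure D4:**
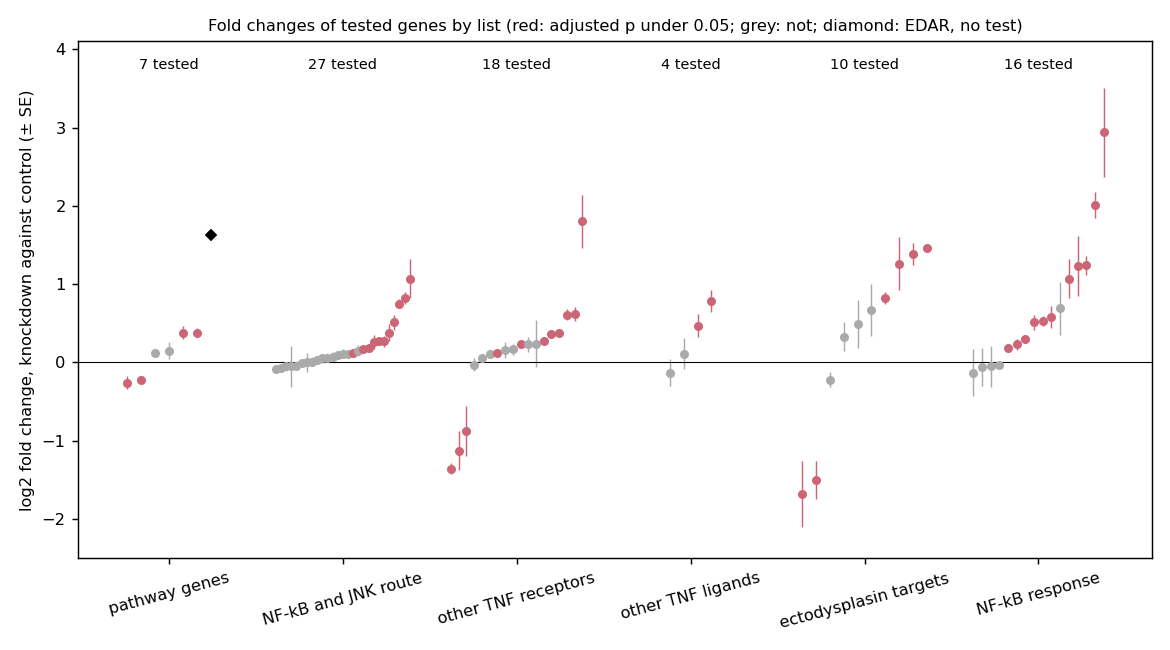
Log2 fold change of knockdown against control (y axis, ± SE) for each tested gene of the 8 pathway genes and the 5 lists, ordered by value within a list; red marks an adjusted p under 0.05 in edgeR, grey a higher p, and the diamond EDAR, which has no test. In the NF-κB route and response lists all red points lie above 0, and the TNF receptors have red points on both sides. Of the red response genes, CCL20 and CXCL1 passed the low-count filter only through knockdown libraries.

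The genes whose pattern was most like that of EDAR were found by the Euclidean distance of edgeR log2 CPM (TMM factors, prior count 2), each gene centred on its mean over the 6 libraries, among 10449 genes. The nearest was DKK4 (distance 0.283), followed by the cilia trafficking gene TULP3 (0.379), the growth factor gene FGF19 (0.407), the receptor tyrosine kinase gene ERBB3 (0.435) and the R-spondin receptor gene LGR6 (0.507). FGF19 was at 11.3, 11.6 and 11 CPM in control against 27.4, 27.5 and 28 CPM in knockdown libraries. LGR6 was at 9.38, 8.36 and 8.29 CPM against 22.3, 19.6 and 19.7 CPM. With a minimum mean of 20 counts in place of 100, DKK4, TULP3 and FGF19 stayed among the 5 nearest, and by Pearson correlation over the same 6 libraries none of the 5 did. Any gene with a rise of similar size between 2 groups of 3 comes out near EDAR by this measure.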

How the data were processed

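Total RNA from 6 cultures was sequenced (RNA-seq), 3 per group, and libraries were grouped by title. The authors deposited whole-number read counts per gene symbol, used here as the main values, and a signal table in which every count is divided by 1 constant per library (0.847 to 1.25); both statements rest on the values. The submitters' processing notes name STAR 2.6.1a, Salmon, DESeq2 and hg19 with no roles. Columns were assigned by their match to the descriptions, and 0 went unused.

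Counts were tested with edgeR 4.0.16 in R 4.3.3 (TMM factors, filterByExpr, quasi-likelihood F-test, group as the only term), with Benjamini-Hochberg adjustment over all tested genes and a threshold of 0.05. SE was taken from the log2 fold change and its F statistic (|log2 fold change|/√F). CPM uses the total counts of a library. An exact two-sided permutation test of 3 against 3 cannot go below 0.1. Transcript lengths and locations come from GENCODE version 44 (GRCh37 mapping); the annotation behind the counts is not given in the sources used here, and 97.1% of tested genes had a length. Named genes were the 8 pathway genes, IRS2, up to 3 per list and direction with the smallest p, and the 5 nearest to EDAR; others are said to be chosen after their values were seen. The genes, lists and tests were chosen with earlier results of these data known. Alternatives were other scalings, filters and thresholds, DESeq2 1.42.0, limma 3.58.1 voom, limma on log2 of the deposited signal plus a pseudocount of 1, thinning, a replicate block, a length and GC correction, and leaving out each library. The fits were also tried on simulated counts in which far fewer genes changed than were called here, so that trial does not cover the setting of these data.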

Additional observations from a re-analysis of the deposited data

How the results depend on the processing

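Over 19 alternatives the log2 fold change of EDAR ran from 1.59 to 1.68, and the number of genes past the threshold from 3714 (adjusted p of 0.01) to 6079 (length and GC correction), or 4319 to 5256 with a library left out. Of 548 values for 29 other named genes, 522 gave the same sign and the same call, 19 lost the call, 7 gained it (all TAB2) and 0 changed sign. The count of TNF receptor genes called fell from 11 to 7 when a mean of at least 50 counts was required, which left fewer genes tested. The count of TNF ligand genes called fell from 2 to 1 with DESeq2 and at an adjusted p of 0.01, and ran from 1 to 2 with a library left out. With no low-count filter 3 ligand genes were called, and the median of that list turned to -0.31 over 14 genes. In the same fit the median fell to 0.20 over 25 response genes and to 0.34 over 17 target genes. It was 0.18 over 26 receptor genes and 0.12 over 27 route genes, against -0.01 over all genes. The causes of the other changes were not tested. Same-numbered libraries had correlations of deviations from their group means of 0.04, -0.01 and -0.10, so the numbers were not taken to pair them. With the replicate number as a block the log2 fold change of EDAR was 1.64, and 10 route, 10 receptor, 2 ligand, 6 target and 11 response genes were called. Depth limits EDA2R, FOXI3 and most TNF ligands, which have few counts per library.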
